A study of Mus musculus with 6 samples.

Results

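Dopamine and adrenergic receptors are the proteins through which cortical cells sense dopamine and noradrenaline, and 9 of their genes are described here in the somatosensory cortex of *Mef2c* conditional knockout (cKO) mice and their controls: *Drd2*, *Drd4*, *Drd5*, *Adra1a*, *Adra1b*, *Adra1d*, *Adra2a*, *Adra2c* and *Adrb1*. They were chosen by name from 21667 genes, with the difference of *Drd5* between these same mice already known. The genotype differences of the 9 genes are therefore given as a description, with no p-value printed and no test of their own. Whether each passed the cut-offs given below is read from the fit over all genes, which does use p-values. A further 4 genes of both families, *Drd1*, *Drd3*, *Adra2b* and *Adrb3*, are used for comparison.

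RNA was sequenced from male mice of a mixed SVeV-129 and C57BL/6J background, with 3 mice of each genotype. All 6 mice carried floxed *Mef2c* (Mef2cfl/fl), and the 3 cKO mice carried Emx1-Cre in addition. Replicate 1 of each genotype was 14 weeks old, and replicates 2 and 3 were 12 weeks old. Per the study's methods, Cre from the *Emx1* gene acts from embryonic stages on in most excitatory neurons of the neocortex and hippocampus and in some glia, so that other cells of the cortex kept *Mef2c*. In these tissue samples, fewer cells of a type and less RNA per cell cannot be told apart.

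All of these receptors are single polypeptides that cross the membrane repeatedly and act through G proteins. D1-class receptors (*Drd1*, *Drd5*) couple to Gs and Golf, which stimulate adenylate cyclase and cAMP production, and D2-class receptors (*Drd2*, *Drd3*, *Drd4*) couple to Gi and Go, which inhibit it. Alpha-1 receptors for noradrenaline couple to Gq and phospholipase C, alpha-2 receptors to Gi, and beta receptors to Gs. In the cortex these transmitters arrive in axons from the midbrain and the locus coeruleus, and their receptors tune the excitability of pyramidal neurons and interneurons and act on glia. MEF2C is a transcription factor that is active in neurons, among other cells.

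Levels are given as CPM, the reads of a gene scaled to 1000000 reads of that mouse, from whole read counts recovered from the deposited values. The totals ranged from 19326365 reads (cKO replicate 2) to 54128334 reads (cKO replicate 3), so that 1 read was worth between 0.0185 and 0.0517 CPM. All 15 listed genes of cortical excitatory neurons were detected, at summed levels of 5362 to 6102 CPM in controls and 5431 to 6320 CPM in cKO mice. Markers of the striatum, thalamus and hippocampus had reads too, so detection does not check the cortical label. Of the 15 cortical genes, 4 were higher and 7 lower in the cKO, and the upper-layer genes *Cux2* and *Rorb* each fell by 1.74 on the log2 scale. Reads on *Mef2c* itself were 800, 772 and 800 CPM in controls and 1231, 1276 and 1468 CPM in cKO mice. These reads come from the whole gene, including exons outside the floxed part, so they check nothing about the deletion.

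The DNA around the start of the gene is shown first for *Drd5* and *Adra2c*, the 2 of the 9 genes that were higher in the cKO, and for *Adrb1*, one of those that were lower. Each window runs from 250 bases before to 50 bases after a RefSeq transcript start and is written 5′ to 3′ on the gene's strand, with build GRCm38.p6. Capitals mark the GC box (GGGCGG) and the core of the cAMP response element (TGACG), searched on both strands.
*Drd5*, chr5:38319259-38319558, plus strand: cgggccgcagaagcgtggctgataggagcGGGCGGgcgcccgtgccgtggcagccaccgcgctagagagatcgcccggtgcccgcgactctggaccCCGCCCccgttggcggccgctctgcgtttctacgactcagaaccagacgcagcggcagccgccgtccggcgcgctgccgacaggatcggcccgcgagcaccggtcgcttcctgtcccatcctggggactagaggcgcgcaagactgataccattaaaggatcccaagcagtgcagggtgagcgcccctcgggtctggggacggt
*Adra2c*, chr5:35278316-35278615, plus strand: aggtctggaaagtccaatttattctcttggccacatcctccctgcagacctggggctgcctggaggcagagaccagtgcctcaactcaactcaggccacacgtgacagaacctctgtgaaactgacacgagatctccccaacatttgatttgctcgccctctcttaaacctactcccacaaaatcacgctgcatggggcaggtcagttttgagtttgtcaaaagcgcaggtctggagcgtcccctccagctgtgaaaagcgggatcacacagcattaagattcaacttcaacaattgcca
*Adrb1*, chr19:56721867-56722166, plus strand: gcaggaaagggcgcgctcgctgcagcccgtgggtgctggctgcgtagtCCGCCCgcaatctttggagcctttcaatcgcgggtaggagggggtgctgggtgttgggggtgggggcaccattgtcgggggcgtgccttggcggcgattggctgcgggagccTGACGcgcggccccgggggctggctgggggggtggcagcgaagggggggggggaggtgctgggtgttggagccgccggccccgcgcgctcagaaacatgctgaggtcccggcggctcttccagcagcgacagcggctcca

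The *Drd5* window held 2 GC boxes in 70.3% G and C, the *Adrb1* window held 1 GC box and 1 cAMP element core in 72.3% G and C, and the *Adra2c* window held neither motif in 51.3% G and C. *Drd5* and *Adra2c* thus started in DNA of different composition. GC boxes were present in 35.66% of all 32851 windows of this length and cAMP element cores in 20.81%. Windows were found for 7 of the 9 genes, 8 windows in all, and 6 of these 8 had a GC box. None of the 8 windows held the full cAMP response element (TGACGTCA, 1.79% of all windows) or a match to the MEF2 site (3.19% of all windows). No match says only that these letters are not in this window.

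Of the 9 receptor genes, 8 passed the filter on low values, a CPM above 0.5 in every mouse of at least 1 genotype, and *Drd4* did not. A gene was called past the cut-offs when its Benjamini-Hochberg adjusted p-value over all 14622 tested genes was under 0.05 and its log2 fold change above 0.3 in size, with limma. Over all tested genes 13.7% were past the cut-offs, 5.88% higher and 7.78% lower in the cKO. Of the 8 receptor genes tested, 2 were past them as higher (*Drd5*, *Adra2c*) and 4 as lower (*Adra1a*, *Adra1b*, *Adra1d*, *Adrb1*). The median log2 fold change was -0.30 over the 8 genes and 0.01 over all tested genes. The genotypes did not overlap for 7 of the 8 tested genes, *Drd2* being the exception, where 33.8% of all tested genes had genotypes that did not overlap. Those of *Drd4*, which was not tested, did not overlap either. Since *Drd5* was known to differ when the genes were chosen, nothing is read from these counts.

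**Figure D1:**
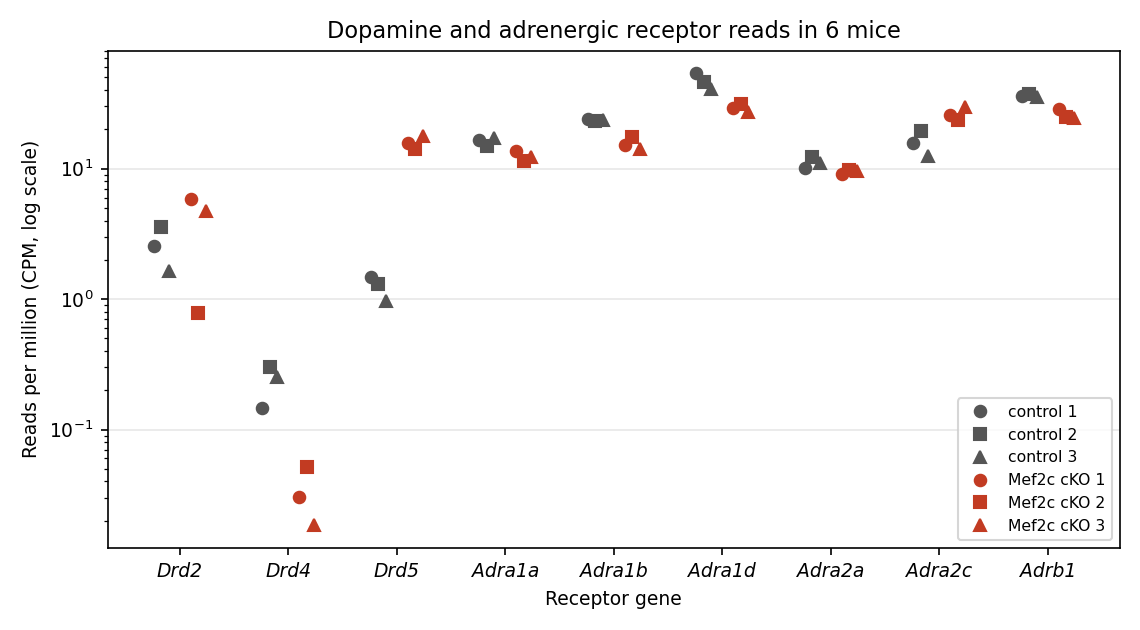
CPM (log scale) of the 9 receptor genes in each of the 6 mice, with grey points for controls, red points for cKO mice and a marker shape for each replicate number. The cKO mice sat at 14.2 to 17.9 CPM for *Drd5* against 0.970 to 1.47 CPM in controls, and *Drd2* had its lowest point of all in cKO replicate 2.

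*Drd5* encodes the D5 receptor, a D1-class receptor with a high affinity for dopamine that is found at low levels in pyramidal neurons and interneurons of the cortex and more strongly in the hippocampus. It had 1.47, 1.30 and 0.970 CPM in control replicates 1, 2 and 3 and 15.8, 14.2 and 17.9 CPM in cKO replicates 1, 2 and 3. Every cKO mouse was far above every control, and the cKO mice lay close together. The means were 1.25 ± 0.254 CPM (SD, n = 3) in controls and 16.0 ± 1.85 CPM in cKO mice, and the log2 fold change was 3.59 ± 0.17 (SE), 12.0-fold. Its log2 fold change ranked as the second highest of all 14622 tested genes. In reads, the control values rested on 50, 64 and 50 reads and the cKO values on 518, 274 and 967 reads. Counting alone would give an SD of 0.172 CPM between controls and 0.718 CPM between cKO mice, below the spread seen.

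The *Drd5* gene (ENSMUSG00000039358) is a single exon of 2.802 kb on the plus strand, at chr5:38710748-38713549 in mm9. A long noncoding RNA gene on the other strand, *Gm16766*, shares 1386 bases with it in the mm9 annotation. The library was directional, but whether the counting used strand is not given in the sources used here, so reads of both genes cannot be told apart. *Gm16766* was not analysed here as a gene of its own.

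The other D1-class receptor, *Drd1*, encodes the most abundant dopamine receptor of the brain, which marks direct-pathway neurons of the striatum and is also made by deep-layer cortical neurons. It had 20.2, 21.4 and 17.7 CPM in controls and 69.5, 49.6 and 77.4 CPM in cKO mice. The genotypes did not overlap, and *Drd1* rose by a log2 fold change of 1.70 ± 0.15 (adjusted p = 8.56e-05, limma over all tested genes). Per kilobase of exon, the control level of *Drd1* was 5.61 ± 0.537 CPM per kb and that of *Drd5* 0.444 ± 0.0906 CPM per kb. In the cKO the levels were 18.6 ± 4.07 and 5.69 ± 0.659 CPM per kb, so *Drd1* remained the more abundant of both. *Drd5* made up 8.38%, 7.07% and 6.45% of the D1-class reads per kb in controls and 22.3%, 26.5% and 22.5% in cKO mice.

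*Drd2* encodes the main D2-class receptor, found on indirect-pathway neurons of the striatum and on dopamine neurons, where it is an autoreceptor. It had 2.56, 3.56 and 1.63 CPM in controls and 5.80, 0.776 and 4.71 CPM in cKO mice. cKO replicates 1 and 3 were above every control and cKO replicate 2 was below every control. With all mice the log2 fold change was 0.19 ± 0.63, not past the cut-offs. Without cKO replicate 2 it was 1.06 and past the cut-offs, and without cKO replicate 1 or 3 it was -0.32 or -0.17. The SD between cKO mice was 2.64 CPM, where counting alone would give 0.319 CPM.

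The *Drd2* values moved with genes of striatal projection neurons. Of 14 such markers, 14 had a lower CPM in cKO replicate 2 than in both other cKO mice, 10 had their lowest value of all 6 mice there, and 11 were above every control in both cKO replicates 1 and 3. Their summed level was 551 to 678 CPM in controls and 932, 573 and 839 CPM in cKO replicates 1, 2 and 3. *Adora2a*, the adenosine receptor that indirect-pathway neurons carry with *Drd2*, had 7.47, 9.56 and 5.14 CPM in controls and 20.3, 1.35 and 14.1 CPM in cKO mice. *Isl1*, a striatal transcription factor, had 7, 12 and 10 reads in controls and 25, 0 and 29 reads in cKO mice. With all mice it was not tested. The 0 reads allow up to 0.155 CPM in cKO replicate 2 (3 reads), close to the 0.194 to 0.243 CPM of the controls. In the controls too, replicate 2 was the highest for all 14 markers and for *Drd2*, and replicate 3 was the lowest for 12 of the 14 and for *Drd2*. *Drd1* and *Adra2c* also had their highest control in replicate 2, their lowest in replicate 3 and their lowest cKO value in replicate 2. The part of these markers in the differences of *Drd2*, *Drd1* and *Adra2c* was not tested.

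**Figure D2:**
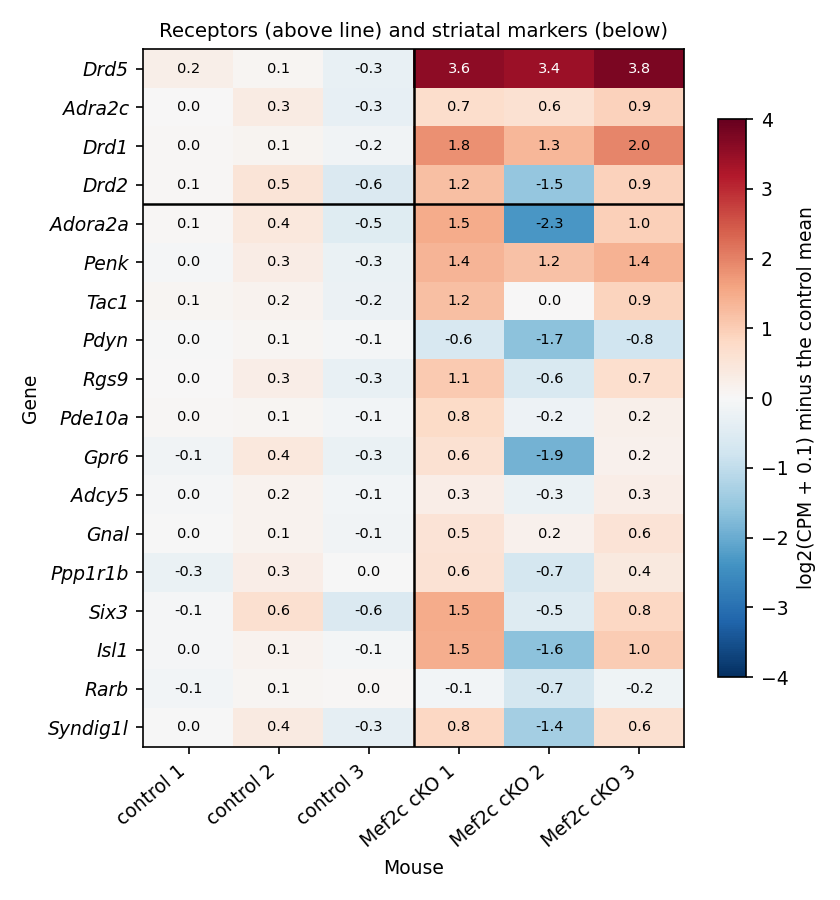
Difference from the control mean, as log2(CPM + 0.1), in each of the 6 mice (columns) for 4 receptor genes above the line and 14 markers of striatal projection neurons below it, with red above and blue below the control mean. *Drd5*, *Adra2c* and *Drd1* are red in all 3 cKO mice, whereas *Drd2*, *Adora2a* and *Gpr6* are red in cKO replicates 1 and 3 and blue in replicate 2.

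Among the markers of striatal projection neurons, 2 of the 13 tested were higher and 1 was lower, beside 5.88% and 7.78% of all tested genes. *Penk*, the enkephalin precursor, rose by 1.31 on the log2 scale (adjusted p = 0.000145, limma), and *Gnal*, which encodes the Golf subunit that couples *Drd1* in the striatum, rose by 0.42 (adjusted p = 0.0315, limma). *Pdyn*, the dynorphin precursor, fell by 1.03 (adjusted p = 0.0158, limma). *Gnal* did not pass with the replicate number as a block (adjusted p = 0.077, limma), without a variance trend, or without control replicate 1 or 3 or cKO replicate 1 or 3, and *Pdyn* did not pass without control replicate 2. Both *Penk* and *Gnal* are also made by cortical neurons. Without cKO replicate 2, 7 of these markers were higher and 1 lower. In that mouse, where *Adora2a* was at 1.35 CPM and below every control, *Drd5* was at 14.2 CPM and *Drd1* at 49.6 CPM, for both genes the lowest value of the 3 cKO mice and above every control. Without it the log2 fold change of *Drd5* was 3.67 and that of *Drd1* 1.89.

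*Drd4* encodes the other D2-class receptor of the set, known from the prefrontal cortex and the retina. It had 5, 15 and 13 reads in controls and 1 read in each cKO mouse, or 0.147, 0.304 and 0.252 CPM against 0.0305, 0.0517 and 0.0185 CPM. Every control was above every cKO mouse, at levels close to that of single reads. Summed over the mice, 33 reads in controls and 3 in cKO mice gave a rate 8.66 times higher in controls, with an exact 95% interval of 2.72 to 44.1 that covers counting error only. *Drd3*, the third D2-class receptor, had 18 to 25 reads in controls and 7 to 18 reads in cKO mice, 0.349 to 0.559 against 0.332 to 0.428 CPM, and was not tested either. D2-class reads per kb summed to 1.42 ± 0.443 CPM per kb in controls and 1.75 ± 1.05 in cKO mice, less than the D1-class sums of 6.06 ± 0.610 and 24.3 ± 4.70.

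Alpha-1 receptors mediate noradrenaline's excitatory effects on cortical neurons, and *Adra1d* was the most abundant adrenergic receptor gene per exon length. It had 53.7, 46.5 and 40.9 CPM in controls and 29.1, 31.2 and 27.1 CPM in cKO mice. The lowest control was above the highest cKO mouse. The log2 fold change was -0.68 ± 0.10. A transcript gene on the other strand, *Gm14285*, shares 672 bases with *Adra1d*, and reads of both cannot be told apart.

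*Adra1b* encodes the alpha-1B receptor. It had 24.1, 23.3 and 23.6 CPM in controls and 15.1, 17.5 and 14.2 CPM in cKO mice. The controls lay close together, with an SD of 0.411 CPM, and all cKO mice were below them. Its log2 fold change was -0.60 ± 0.09. *Adra1a*, the alpha-1A receptor, had 16.6, 15.0 and 17.3 CPM in controls and 13.6, 11.5 and 12.4 CPM in cKO mice. Again no cKO mouse reached a control, with a smaller gap. The log2 fold change of -0.38 ± 0.10 was past the cut-offs with all mice, but not with the replicate number as a block, nor when control replicate 1 or 3 or cKO replicate 2 or 3 was left out. It ranged from -0.45 to -0.32 over all alternatives on the recovered counts. Summed per kb, alpha-1 reads were 37.3, 33.0 and 30.5 CPM per kb in controls and 21.4, 22.9 and 19.9 in cKO mice.

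Alpha-2 receptors act as autoreceptors on noradrenaline axons and as receptors on cortical neurons, and of their genes *Adra2c* and *Adra2a* had appreciable reads. *Adra2c*, the alpha-2C receptor, had 15.7, 19.5 and 12.5 CPM in controls and 25.6, 23.7 and 29.6 CPM in cKO mice. The highest control was below the lowest cKO mouse, while the controls themselves differed more than counting allows, with an SD of 3.52 CPM against 0.605 CPM from counting. Control replicate 2 was the highest and replicate 3 the lowest control, as for *Drd2*, and cKO replicate 2 was the lowest cKO mouse. The log2 fold change was 0.74 ± 0.15, 1.67-fold. *Adra2c* is the only adrenergic receptor gene of the 7 tested here that was past the cut-offs as higher, and like *Drd5* it is a single exon on chromosome 5 (chr5:35621215-35624410 in mm9), 3.09 Mb from *Drd5*.

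*Adra2a*, the alpha-2A receptor and the target of guanfacine and clonidine, had 10.1, 12.3 and 11.1 CPM in controls and 9.16, 9.68 and 9.64 CPM in cKO mice. The cKO mice were all just below the lowest control. Its log2 fold change of -0.23 ± 0.10 was not past the cut-offs with all mice or under any alternative in which it was tested. *Adra2b*, the third alpha-2 gene, had 16, 11 and 0 reads in controls and 21, 0 and 36 reads in cKO mice. The 0 reads allow up to 0.0582 CPM in control replicate 3 and 0.155 CPM in cKO replicate 2 (3 reads) and the genotypes overlapped throughout. *Adra2b* was not tested. Alpha-2 genes made up 12.8% to 16.2% of the adrenergic reads per kb in controls and 23.3% to 28.5% in cKO mice.

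*Adrb1* encodes the beta-1 receptor, the main beta receptor of cortical neurons. It had 35.9, 37.4 and 35.1 CPM in controls and 28.5, 24.7 and 24.6 CPM in cKO mice. The genotypes were clearly apart, with a gap wider than the range within either. The log2 fold change was -0.48 ± 0.08. *Adrb3*, best known from adipose tissue, had 57, 81 and 75 reads in controls and 15, 4 and 20 reads in cKO mice, or 1.68, 1.64 and 1.46 against 0.458, 0.207 and 0.369 CPM. It fell by 1.97 on the log2 scale (adjusted p = 0.000793, limma), from a low level.

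**Figure D3:**
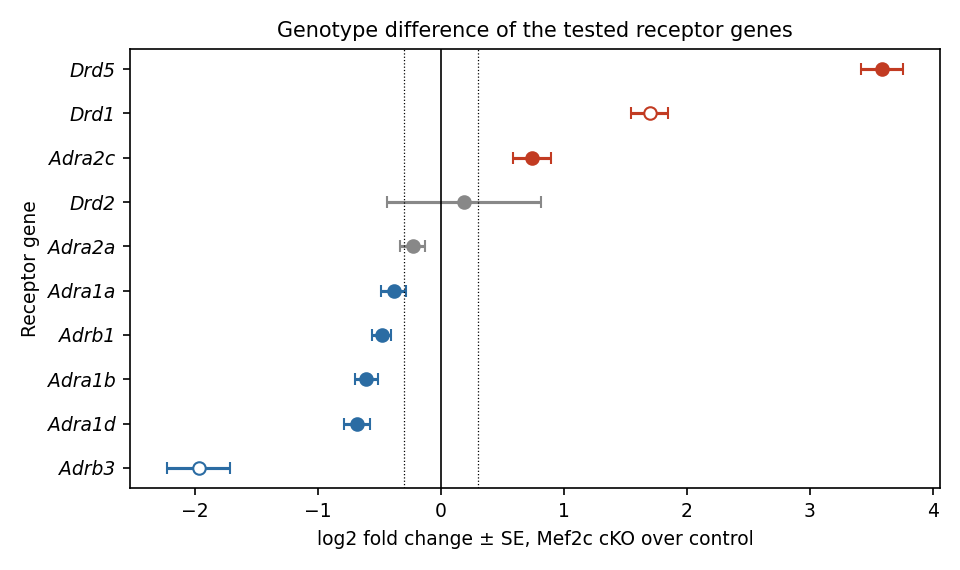
log2 fold change (cKO over control) with its SE from the fit over all genes, for the 10 receptor genes that passed the filter, with red for genes past the cut-offs as higher, blue as lower and grey for neither, and open points for genes outside the 9. *Drd5* stands at 3.59 and *Drd1* at 1.70, all alpha-1 genes and *Adrb1* lie between -0.68 and -0.38, and the error bar of *Drd2* spans 0.

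Per kb of exon the 8 adrenergic receptor genes described here summed to 59.96, 58.0 and 51.9 CPM per kb in controls and 43.5, 42.9 and 41.9 in cKO mice. In this order of levels *Adra1d* led in both genotypes, at 24.7 ± 3.38 CPM per kb in controls and 15.3 ± 1.07 in cKO mice, followed by *Adrb1* at 14.5 ± 0.463 and 10.4 ± 0.883. In controls *Adra1b* (6.99 ± 0.121) came next and then *Adra2c* (4.97 ± 1.10), and in the cKO *Adra2c* (8.23 ± 0.929) stood above *Adra1b* (4.61 ± 0.502). *Adra2a* (2.94 ± 0.292) and *Adra1a* (1.87 ± 0.133) were the lowest of the 6 in controls, and also in cKO mice (2.5 ± 0.0757 and 1.43 ± 0.123). Neighbours in this order were apart by more than the sum of their SDs in either genotype. *Adra2c* made up 8.75% ± 1.58 of the adrenergic reads per kb in controls and 19.3% ± 2.5 in the cKO. The exon lengths are those of the mm9 annotation used here, which differs from the authors' file, so these levels depend on it.

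**Figure D4:**
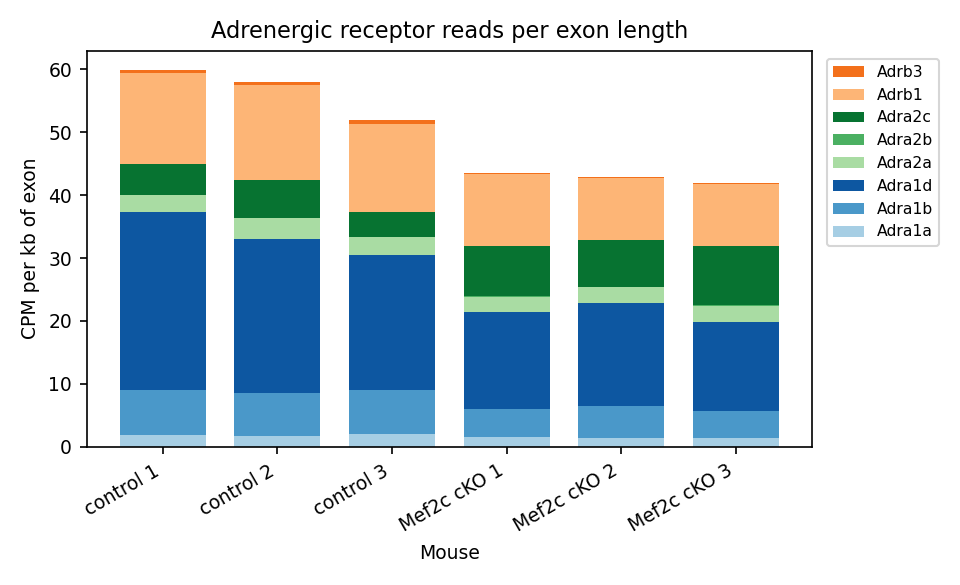
Stacked CPM per kb of exon of the 8 adrenergic receptor genes in each mouse, in blue for alpha-1, green for alpha-2 and orange for beta genes. The columns reach 51.9 to 59.96 in controls and 41.9 to 43.5 in cKO mice, with a smaller blue and orange part and a larger dark green part (*Adra2c*) in the cKO.

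Genes that act with these receptors were counted from a list of 72 genes outside the 9, of which 63 were tested. Of these, 5 were higher and 12 lower, 17 in all, with a median log2 fold change of 0.02 beside 0.01 for all genes. The shares over all tested genes were 5.88% higher and 7.78% lower. The list includes the 4 other receptors above, of which *Drd1* rose and *Adrb3* fell.

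For making, moving and breaking down catecholamines, 7 of 13 genes were tested and 1 was called. *Slc22a3*, a low-affinity uptake transporter for noradrenaline and dopamine outside neurons, had 1.62, 2.79 and 2.0 CPM in controls and 0.855, 0.310 and 0.554 CPM in cKO mice, and fell by 1.78 on the log2 scale (adjusted p = 0.00502, limma). *Maoa* and *Maob*, which encode the monoamine oxidases that break these transmitters down, had log2 fold changes of 0.04 and -0.18 and did not pass. *Th*, the first enzyme of dopamine synthesis, had 0.628 to 1.03 CPM in controls and 1.13 to 1.5 CPM in cKO mice, which do not overlap, but did not pass (0.65, adjusted p = 0.0865). The dopamine transporter gene *Slc6a3* had at most 0.111 CPM in any mouse.

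Of the 17 G protein and adenylate cyclase genes tested, 2 were higher and 3 lower. *Adcy9* rose by 0.50 and *Gnal* by 0.42, and the cyclases *Adcy7*, *Adcy8* and *Adcy2* fell by 0.90, 0.52 and 0.43 (adjusted p = 0.000658 to 0.0315 for these 5 genes, limma). *Adcy7* had 6.62, 6.34 and 8.79 CPM in controls and 3.30, 3.93 and 4.21 CPM in cKO mice. *Adcy1*, a calmodulin-stimulated cyclase, and *Gnas*, the Gs subunit, had the highest levels of the group, at log2 fold changes of 0.22 and 0.19 that did not pass (adjusted p = 0.0643 and 0.104). *Gnal* lost its call in the alternatives given above. Cyclase genes were thus found in both directions.

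Of the 21 second messenger enzymes and targets, all tested, 2 were higher and 4 lower. *Prkca*, a protein kinase C, rose by 0.52 and *Kcnj6*, a potassium channel subunit opened by Gi-coupled receptors, rose by 0.40. *Pde4d*, which breaks down cAMP, fell by 0.55, *Plcb4*, a phospholipase C downstream of Gq, fell by 0.48, *Prkacb*, a catalytic subunit of protein kinase A, fell by 0.41, and *Kcnj9*, another channel subunit, fell by 0.31. The adjusted p-values of these 6 genes were 0.000166 to 0.0219. *Kcnj6* did not pass without control replicate 1 or 2 or cKO replicate 1 or 2, nor *Kcnj9* without control replicate 2 or cKO replicate 1 or 2. With all mice but no variance trend, neither *Kcnj6* nor *Kcnj9* passed (adjusted p = 0.0522 and 0.0706, limma). The most abundant genes of the group, *Prkcb* and *Prkar1b*, did not pass (0.02 and -0.26). *Ppp1r1b*, which encodes DARPP-32, had 47.4, 68.4 and 56.1 CPM in controls and 84.7, 34.8 and 73.8 CPM in cKO mice, the same order of cKO mice as *Drd2*.

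All 16 receptor kinases, arrestins and receptor-binding proteins were tested, and 3 were lower and none higher (3 were higher at an unadjusted p under 0.05 in limma, and 0 passed as higher with limma-voom). Without cKO replicate 2, 2 were higher (*Caly*, *Rgs9*) and 2 lower, and 1 was higher without control replicate 2 (*Caly*) or cKO replicate 1 (*Nsf*). *Rgs4*, which shortens the signal of Gq and Gi, had 591, 646 and 688 CPM in controls and 253, 275 and 278 CPM in cKO mice. It fell by 1.26 (adjusted p = 6.29e-06), and the highest cKO mouse was far below the lowest control. *Gpr158*, a receptor that binds RGS proteins, fell by 0.52 (adjusted p = 0.000421), and *Grk5*, a receptor kinase, fell by 0.40 (adjusted p = 0.0407). The *Grk5* call was lost without control replicate 1 or 3 or cKO replicate 2 or 3. With all mice it was also lost without a variance trend (adjusted p = 0.073, limma) or without the filter on low values (adjusted p = 0.0528, limma). *Ppp1r9b* and *Nsf*, the most abundant of the group, had log2 fold changes of 0.07 and 0.27, and the arrestins *Arrb1* and *Arrb2* had -0.04 and 0.23, none of them past the cut-offs.

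**Figure D5:**
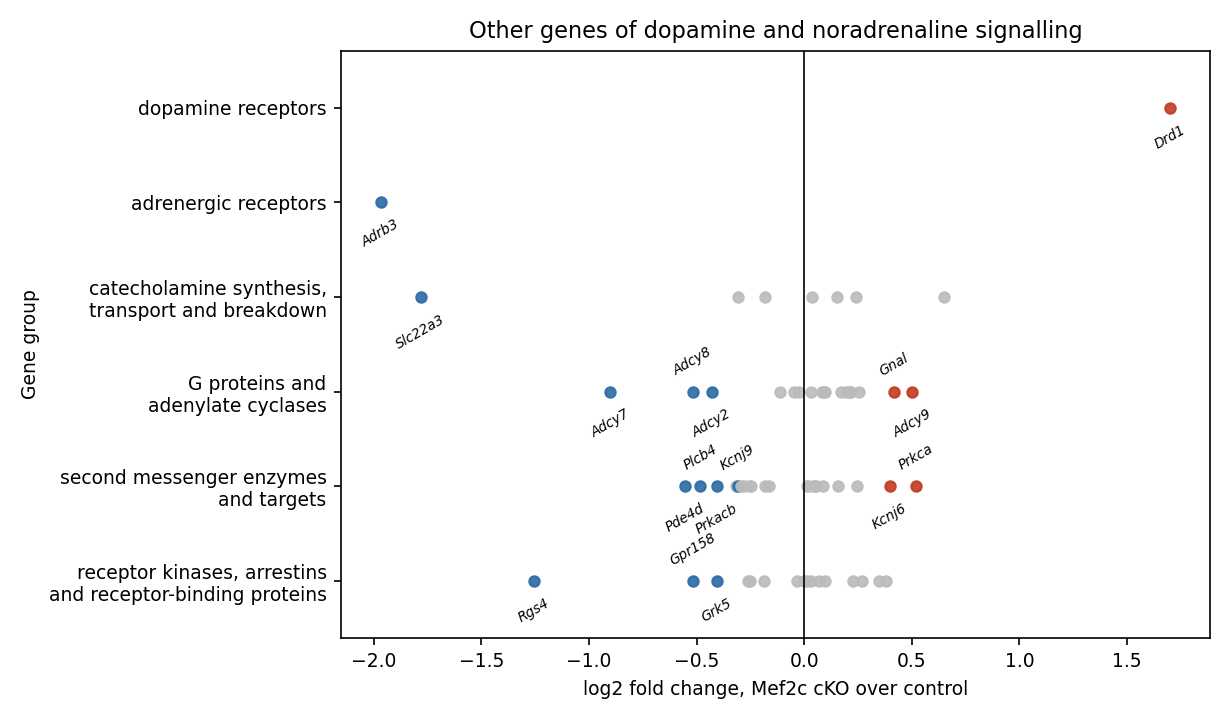
log2 fold change (cKO over control) of the 63 tested genes that act with these receptors, in rows by group, with 1 point a gene, in red for genes past the cut-offs as higher, blue as lower and grey for neither. Of the 17 named genes, *Drd1* is the highest at 1.70 and *Adrb3* the lowest at -1.97.

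The genes whose pattern over the 6 mice was most like that of *Drd5* were *Rab38*, *Tnn*, *Mc4r*, *Tdo2* and *Spink8*, in this order, by the root mean square difference of log2(CPM + 0.1) from the control mean over 14024 genes with a mean of at least 1 CPM. The measure was 0.273 for *Rab38* and 0.377 for *Spink8*. All 5 had under 1 CPM in every control, on 5 to 28 reads, and 1.97 to 9.66 CPM in cKO mice. They passed the filter on low values only through the cKO mice. Since they were picked for a profile like that of *Drd5*, their rise restates this choice and nothing is read from it. *Mc4r*, the melanocortin-4 receptor, likewise couples to Gs, and had 0.823, 0.425 and 0.407 CPM in controls and 6.60, 4.19 and 9.66 CPM in cKO mice. *Tdo2*, a tryptophan-degrading enzyme, is also on the list of hippocampal markers.

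The levels of other cell types beside these results were as follows, where 5.88% of all tested genes were higher and 7.78% lower. The 10 hippocampal markers summed to 201 to 216 CPM in controls and 321 to 458 CPM in cKO mice, with 4 of the 9 tested higher (*Tdo2*, *Fibcd1*, *Wfs1*, *Neurod6*) and 1 lower (*C1ql2*). The largest CPM differences were those of *Wfs1* (means of 58.4 in controls and 138.1 in cKO mice) and *Neurod6* (41.65 and 104.6). *Neurod6* is also on the list of cortical excitatory neurons, and *Prox1*, *Dsp*, *Lct* and *Zbtb20* did not pass. The sum, *Drd5*, *Drd1* and *Adra2c* were each higher in all 3 cKO mice than in every control, and no closer link was tested. The 9 thalamic markers summed to 148 to 183 CPM in controls and 108 to 118 CPM in cKO mice, with *Gbx2* at 0 reads in 4 mice. Of the 7 tested, 1 was higher and 3 were lower (*Rora*, *Ramp3*, *Slc17a6*). Most of the difference in this sum came from 1 gene, *Rora*, with means of 71.7 CPM in controls and 31.6 CPM in cKO mice. The higher gene, *Prkcd*, did not pass without control replicate 1 or 3 or cKO replicate 2 or 3, and 2 to 3 genes were lower without any 1 mouse. The 14 interneuron markers summed to 1167 to 1270 and 1361 to 1530 CPM, with 5 higher and 1 lower, but 2 higher without control replicate 1 or 2 or cKO replicate 2, and 3 higher and 2 lower without control replicate 3. Astrocyte markers summed to 4827 to 5125 and 4262 to 4525 CPM, with 2 higher (*Aqp4*, *Gfap*) and 1 lower (*Aldh1l1*). Of these markers 3 were higher without cKO replicate 2, and 2 were lower without control replicate 2. *Slc1a2* had means of 3407 CPM in controls and 2864 CPM in cKO mice and did not pass. Oligodendrocyte markers summed to 3381 to 5464 and 5408 to 6936 CPM (4 higher). The oligodendrocyte count was 2 without control replicate 1 or 2 or cKO replicate 2 or 3, 8 without control replicate 3 and 7 without cKO replicate 1. None of the 10 microglial markers and none of the 10 vascular markers passed in the limma fit or with limma-voom, and in each list 3 had an unadjusted p under 0.05. The part of any of these in the receptor differences was not tested.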

How the data were processed

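Cortical RNA was compared between genotypes, with 3 mice in each. The authors prepared directional polyA libraries, aligned reads to mm9 with TopHat and Bowtie and counted genes with HTSeq, and the deposited values are RPKM, in 1 table per mouse, with 92 of 21759 rows left out for having no gene name (0.0508% to 0.0753% of the reads). In each table the RPKM values were whole multiples of 1 read over lengths that repeated after 65 to 296 rows in the order of the gene IDs, so that 1 gene had different lengths in different mice. Whole counts and totals were therefore recovered from these steps, for 99.86% to 99.91% of the values above 0, and the counts summed to 99.96% of each total. Counts were divided by the total to give CPM, with no other scaling and no length.

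log2(CPM + 0.1) was fitted with limma 3.58.1 (lmFit, eBayes with a variance trend) in R 4.3.3 over 14622 genes with at least 2 recovered values per genotype. Fold changes on this scale understate the change of genes with few reads. With 3 mice per genotype, p-values and SEs rest on the spread between these mice. For each gene limma combines its own spread with that of all tested genes. Without the variance trend 1786 genes were past the cut-offs in place of 1997. Genes named were the 9 receptors, pathway genes past the cut-offs or among the 2 most abundant of their group, and the 5 genes most like *Drd5*, and a few others were chosen after their values were seen. A few genes of the lists are not reported here. The members and lists were chosen with earlier results of these data known. The recovery and the fit were tested on simulated data. Alternatives were pseudocounts of 0.5 and 1, other filters, median-of-ratios size factors, no variance trend, limma-voom, age as a covariate, a replicate block, the deposited RPKM values as they are and leaving out each mouse. No negative binomial count test was run on the recovered counts. Python 3.11.15, numpy 2.4.6, pandas 2.3.3, scipy 1.17.1 and matplotlib 3.10.9 were also used. Coordinates are those of a gencode annotation of mm9, and promoter windows those of RefSeq on GRCm38.p6. Intervals cover counting error only, and PCR copies were not told apart.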

Additional observations from a re-analysis of the deposited data

How the results depend on the processing

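The deposited RPKM values as they are gave 14 genes past the cut-offs in place of 1997, 0 of the receptor genes in place of 6 and 0 of the pathway genes in place of 17, with 7974 genes, 2 of the 9 receptors and 48 pathway genes tested. In that alternative, whose lengths differ between mice for 1 gene, *Drd1* (-0.26), *Adcy9* (-2.06), *Gnal* (-0.33) and *Prkca* (-1.53) had the opposite sign. Under the other 15 alternatives, 1657 to 2030 genes, 5 to 7 receptor genes and 13 to 18 pathway genes were past the cut-offs. The 7 include *Drd4*, tested only without a filter on low values, and *Drd2* passed without cKO replicate 2. Leaving out 1 mouse gave *Drd2* a log2 fold change of -0.32 to 1.06, with the opposite sign without cKO replicate 1 (-0.32), cKO replicate 3 (-0.17) or control replicate 3 (-0.10). *Adra1a*, *Gnal*, *Grk5*, *Kcnj6* and *Kcnj9* each failed the cut-offs in 4 to 6 of these 15, and the remaining receptor genes named as past the cut-offs passed wherever they were tested, which for *Adrb3* leaves out the filter of a mean CPM above 1. With the replicate number as a block, 1695 genes, 5 receptor genes (without *Adra1a*) and 16 pathway genes (without *Gnal*) were past the cut-offs. Same-numbered mice did not deviate together (r = -0.176, -0.109 and -0.082 over 14622 genes), so the numbers are not treated as pairs. Genes with few reads, such as *Drd4*, are limited by depth, most of all in cKO replicate 2.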

Other observations

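*Drd5* and *Adra2c*, the 2 of the 9 receptor genes past the cut-offs as higher, lie on the same chromosome, while *Drd1*, also higher, lies on chromosome 13. For *Drd5* and *Adra2c*, the protein-coding genes within 1000 kb of each were looked at, a window chosen with the results known. Over all tested genes 5.88% were past the cut-offs as higher and 7.78% as lower. Around *Drd5*, 13 of 15 genes were tested and 5 were past the cut-offs, each of them higher. *Wdr1*, 204.5 kb downstream, which encodes a protein that disassembles actin filaments, had 174, 168 and 161 CPM in controls and 264, 265 and 271 CPM in cKO mice and rose by 0.67 on the log2 scale (adjusted p = 4.6e-05, limma). *Slc2a9*, 27.0 kb downstream, a urate transporter gene, rose by 0.56 (adjusted p = 0.00424). *Evc*, *Evc2* and *Msx1*, 494.9 to 982.6 kb upstream, rose by 0.71, 0.37 and 0.62. The nearest tested gene upstream, *Tmem128*, had -0.24 and did not pass, and *Otop1* at 15.3 kb had at most 1 read in a mouse. The differences of these neighbours were far smaller than that of *Drd5*. Around *Adra2c*, 19 of 23 genes were tested, and 1 (*Lrpap1*, 0.31) was higher and 1 (*Sorcs2*, -0.32) lower. Whether nearness plays a part was not tested.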
